A study of Rattus norvegicus with 192 samples.

Results

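The potassium channel genes are the genes whose symbol starts with Kcn. They were found in the platform annotation of a rat expression array, through probe sets that name 1 such gene and no other. The rule gave 75 genes of the 13438 named genes on the array, read by 115 probe sets. Where a gene had several probe sets, 24 genes in all, PH3 was compared with Air on its brightest probe set in the Air arrays of that tissue, and for 13 genes this differs between tissues. Comparisons between tissues used 1 probe set per gene, the one with the highest mean of its 6 Air tissue means, so a level given there can belong to another probe set than the PH3 effect in the same tissue. One further probe set, which carries Kcnk6 under more than 1 gene identifier, was left out. Adult male Sprague-Dawley rats were exposed to air or to phosphine (PH3), used as a fumigant and an inhibitor of mitochondrial respiration. Exposure was whole-body, at 660 ppm for 25 min, a product of 16500 ppm×min and 0.71 times the LCt50, the product lethal to 50% of animals. Brain stem, olfactory bulb, heart, kidney, lung and blood were taken after 1, 3, 6 or 24 h, under ketamine and xylazine in Air and PH3 rats alike. Each tissue therefore has 8 groups, Air and PH3 at each of the 4 times, with 4 rats a group. The exceptions were the 24 h Air group of blood, with 3 rats, and the 1 h Air group of olfactory bulb, with 5. The 192 arrays came from 59 rats, 96 arrays from Air and 96 from PH3.

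Potassium channels let potassium ions leave or enter a cell and so set its resting voltage and shape its electrical pulses. Voltage-gated pores (the Kcna, Kcnb, Kcnc, Kcnd, Kcnh and Kcnq genes) open when the membrane depolarises, and silent modifiers (Kcng, Kcns, Kcnv) join such pores without forming a working channel alone. Inward rectifiers (Kcnj) and leak channels with paired pore domains (Kcnk) hold the resting voltage, and calcium- or sodium-activated pores (Kcnm, Kcnn, Kcnt) answer to ions inside the cell. Auxiliary subunits (Kcnab, Kcne, Kcnip, Kcnmb) change how the pores open or reach the surface. ATP-sensitive channels, built from Kcnj8 or Kcnj11 with a sulfonylurea receptor (Abcc8 or Abcc9), open when ATP in the cell falls. The 75 genes comprised 24 voltage-gated pores, 15 inward rectifiers, 13 auxiliary subunits, 11 leak channels, 7 silent modifiers and 5 calcium- or sodium-activated pores.

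All levels are log2 intensities, so a difference of 1 is a doubling, and levels were compared only within a probe set. A gene was called where limma gave an adjusted p under 0.05 over all 31042 probe sets. The labels fit the tissues: in the Air arrays the mean of 7 cardiomyocyte markers was 12.6 in heart, of 7 kidney tubule markers 10.5 in kidney, of 7 lung epithelium markers 12.0 in lung, of 7 neuron markers 10.9 in brain stem and 10.6 in olfactory bulb, and of 5 red cell markers 11.9 in blood. Lung also carried cardiomyocyte markers, at 5.67 to 8.21 in its Air arrays, against 3.14 to 4.62 in the other tissues apart from heart. Blood was the noisiest tissue, with a median residual SD of 0.50 against 0.154 to 0.253 in the solid tissues. Nonspecific control probe sets lay higher in blood (median 3.48) than in the solid tissues (2.67 to 2.92), so the low end of the blood scale is raised. Some arrays stood apart, in that their mean correlation with the other arrays of the tissue fell over 3 median absolute deviations under the tissue median (33 of 192 arrays). They included 3 of the 4 PH3 arrays at 1 h in lung and in kidney (Rat343, Rat351 and Rat357 in both tissues), 1 of the 4 kidney Air arrays at 1 h (Rat345) and 2 of the 4 lung Air arrays at 3 h (Rat355 and Rat365). Across the 24 comparisons of PH3 with Air, 12 of 1800 tests on the potassium channel genes passed, in 10 genes. All 12 were higher after PH3, 11 of them in lung at 1 or 3 h and 1 in kidney at 1 h.

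Promoters from the RefSeq promoter table are shown for 3 of the 10 genes called after PH3. These are Kcnk5, called in both lung and kidney, Kcnj8, which had the largest called effect, and Kcnmb4, called in lung. Each runs 5′ to 3′ from 250 bases before to 50 bases after the RefSeq start site of the GRCr8 assembly. Capitals mark any match, on either strand, to the glucocorticoid receptor half-site AGAACA, the E-box CACGTG or the GC box GGGCGG.
Kcnk5 (chr15:4171375-4171674, plus strand): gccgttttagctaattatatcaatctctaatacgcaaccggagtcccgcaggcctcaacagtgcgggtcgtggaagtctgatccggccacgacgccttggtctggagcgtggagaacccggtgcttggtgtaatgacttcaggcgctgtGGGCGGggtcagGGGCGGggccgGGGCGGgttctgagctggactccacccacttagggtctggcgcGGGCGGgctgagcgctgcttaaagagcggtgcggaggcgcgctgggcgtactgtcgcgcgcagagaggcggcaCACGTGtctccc
Kcnj8 (chr4:177246499-177246798, minus strand): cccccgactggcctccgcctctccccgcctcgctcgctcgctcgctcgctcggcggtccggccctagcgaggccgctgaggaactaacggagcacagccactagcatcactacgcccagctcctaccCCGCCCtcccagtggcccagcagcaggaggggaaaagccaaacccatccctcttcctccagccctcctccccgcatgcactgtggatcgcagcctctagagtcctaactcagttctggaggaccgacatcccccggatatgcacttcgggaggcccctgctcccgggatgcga
Kcnmb4 (chr7:54005052-54005351, minus strand): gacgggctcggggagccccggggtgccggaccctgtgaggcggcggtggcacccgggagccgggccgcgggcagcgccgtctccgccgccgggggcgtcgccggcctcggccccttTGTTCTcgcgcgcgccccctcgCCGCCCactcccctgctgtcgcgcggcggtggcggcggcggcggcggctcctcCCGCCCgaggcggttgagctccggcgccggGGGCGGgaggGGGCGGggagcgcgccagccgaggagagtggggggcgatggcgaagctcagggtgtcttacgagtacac
The Kcnk5 window held 4 GC boxes and, after the start site, 1 E-box. The Kcnj8 window held 1 GC box and neither of the other motifs. The Kcnmb4 window held 1 glucocorticoid receptor half-site and 4 GC boxes. GC content was 64.7% for Kcnk5, 67.0% for Kcnj8 and 80.7% for Kcnmb4, against a median of 51.7% over all promoters of the table. Of the 75 genes, 52 matched the table, 6 of them with more than 1 promoter. A gene was counted where any of its promoters held the motif, while the share of the table is counted by promoter. The GC box was present in 31 of the 52 genes (59.6%) and in 33.1% of all 33469 promoters. The half-site was in 8 genes (15.4% against 20.7%), of which Kcnmb4 alone was called after PH3. The E-box was in 3 (5.8% against 6.4%). A match of letters is a description of the window and says nothing of binding.

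In Air rats the genes differed strongly between tissues. The range of a gene's tissue means had a median of 3.11 and ran from 0.58 for Kcnj9 to 7.73 for Kcnip2, and 57 of the 75 genes ranged over more than 2 log2 units. By pairwise limma tests, 68 genes (90.7%) were higher in 1 tissue than in each of the other 5, against 74.6% of all named genes. For 34 genes (45.3%, against 28.9% of all named genes) every Air array of the top tissue lay above every Air array elsewhere. Blood led for 18 genes (24.0%, against 21.3% of named genes), olfactory bulb for 17 (22.7%, against 8.47%) and brain stem for 14 (18.7%, against 8.78%). Heart led for 9 (12.0%, against 11.1%), kidney for 6 (8.0%, against 12.3%) and lung for 4 (5.3%, against 12.7%). Counted without overlap, 11 genes led in olfactory bulb (3.33% of named genes), 6 in blood (6.53%), 6 in heart (4.85%), 6 in brain stem (3.73%), 4 in kidney (5.81%) and 1 in lung (4.66%). The 7 genes without a single top tissue were Kcnh2, Kcnip3, Kcnq1, Kcne4, Kcnn3, Kcnj9 and Kcns2. All these counts rest on 1 probe set per gene. Of the 24 genes with several probe sets, 10 had their highest tissue mean in the same tissue on every probe set. The top tissue differed between probe sets for Kcna6, Kcnc2, Kcnc4, Kcnd3, Kcne2, Kcng2, Kcnip1, Kcnip2, Kcnj3, Kcnj6, Kcnk2, Kcnk3, Kcnma1 and Kcnt1. The level of 14 genes, among them Kcnj2, was below the array median in every tissue.

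**Figure D1:**
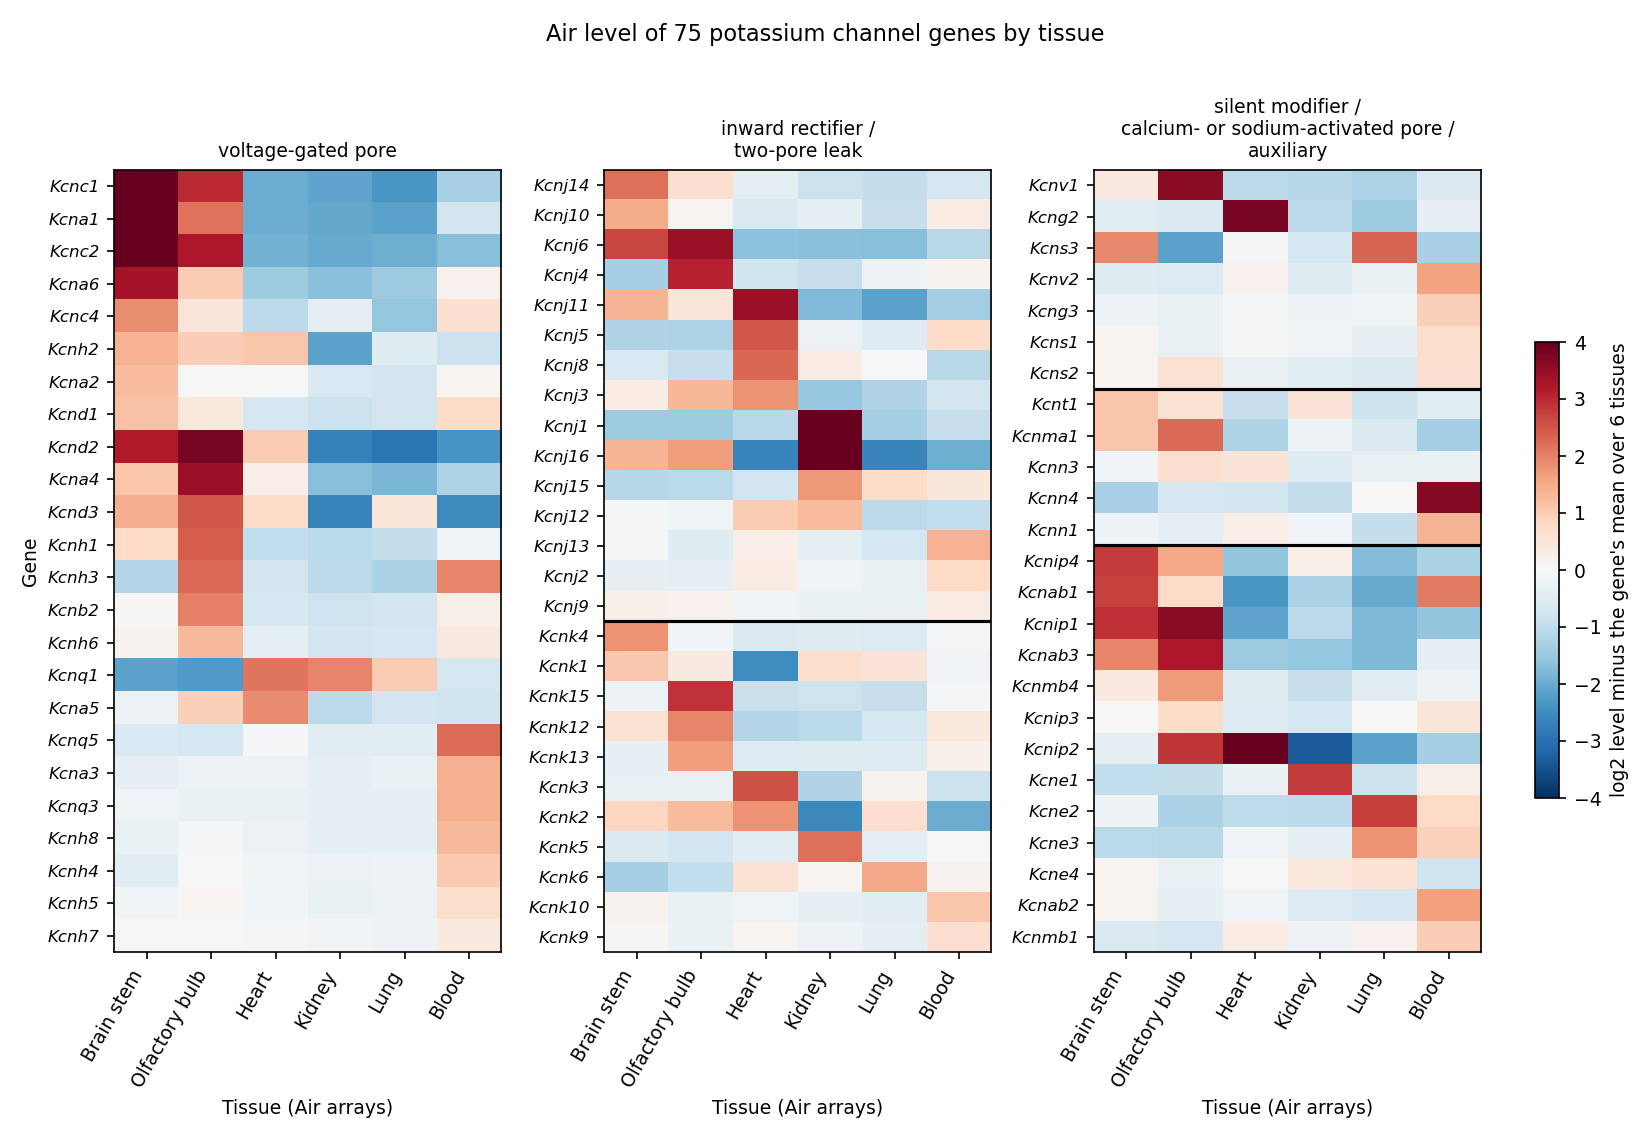
Air level of each potassium channel gene (rows, grouped by role) in 6 tissues (columns), drawn as its log2 level minus the gene's own mean over the tissues, with differences beyond 4 drawn at 4. Voltage-gated pores stand out in brain stem, olfactory bulb and blood, and Kcnj1 and Kcnj16 in kidney. Of the pores highest in blood, Kcna3, Kcnh4, Kcnh5, Kcnh7 and Kcnh8 were below the array median in every tissue.

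Of the 24 voltage-gated pores, 7 were highest in brain stem, 7 in olfactory bulb, 7 in blood, 1 in heart and 0 in kidney or lung. Without overlap 4 led in brain stem, 2 in olfactory bulb and 3 in blood. Among those highest in blood, Kcna3, Kcnh4, Kcnh5, Kcnh7 and Kcnh8 were below the array median in every tissue. That is the low end of the scale, which is raised in blood. Kcna1, a pore of axons, was at 10.2 ± 0.12 (SD, n = 16) in brain stem, 7.63 ± 0.29 (n = 17) in olfactory bulb and 4.73 ± 0.48 (n = 15) in blood. In heart, kidney and lung it was at 3.30 to 3.45, and these 3 neighbours did not differ by the test (adjusted p of 0.74 and 0.28, limma). Kcnc1, a fast pore of rapidly firing neurons, followed the same order, with 10.1 ± 0.17 in brain stem, 8.37 ± 0.17 in olfactory bulb and 4.08 ± 0.53 in blood. For both genes every brain stem array lay above every olfactory bulb array. Kcna6 reached 8.36 ± 0.19 in brain stem and 6.05 ± 0.51 in olfactory bulb, though its probe sets do not all have the same top tissue. Kcna4, a rapidly inactivating pore, had the opposite order, at 8.01 ± 0.22 in olfactory bulb and 5.70 ± 0.19 in brain stem, with heart next at 4.87 ± 0.44.

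Blood led for Kcnq5, Kcna3 and Kcnq3. Kcnq5, a slow pore of the M-current family, was at 6.59 ± 0.23 (n = 15) in blood and 4.26 ± 0.30 (n = 16) in heart. Kcna3, the voltage-gated pore of T cells, was at 4.87 ± 0.60 in blood and at 3.07 to 3.21 in the 5 solid tissues, where no pair of neighbours differed by the test (adjusted p of 0.61 to 0.82, limma). Kcnq3 was at 5.56 ± 0.39 in blood and at 3.81 to 3.97 elsewhere. With each array's control median subtracted, an alternative chosen after seeing the data, blood led for 12 genes instead of 18. Kcnh2, the pore of the cardiac rapid delayed rectifier, had no single top tissue, at 7.80 ± 0.26 in brain stem, 7.52 ± 0.35 in heart and 7.40 ± 0.19 in olfactory bulb. Brain stem against heart gave an adjusted p of 0.057 and heart against olfactory bulb 0.43 (limma). Kcnq1, the pore of the slow cardiac delayed rectifier, was at 7.97 ± 0.21 in heart and 7.80 ± 0.38 in kidney (adjusted p = 0.20, limma).

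Of the 15 inward rectifiers, 4 were highest in heart (Kcnj3, Kcnj5, Kcnj8 and Kcnj11), 4 in kidney (Kcnj1, Kcnj12, Kcnj15 and Kcnj16) and 0 in lung. Kcnj1, the potassium secretion channel of the kidney tubule, was at 10.4 ± 0.24 (n = 16) in kidney. Its next level was 3.25 ± 0.24 in blood, so its gap of 7.12 was the widest of the 75 genes. Kcnj16, which pairs with other Kcnj pores of tubule and glia, was at 10.3 ± 0.22 in kidney, 7.85 ± 0.37 in olfactory bulb, 7.54 ± 0.19 in brain stem and 3.54 in both lung and heart. Kcnj4, an inward rectifier of forebrain neurons, was at 8.51 ± 0.27 in olfactory bulb and 5.57 ± 0.51 in blood. Kcnj10, the main inward rectifier of astrocytes, was at 5.39 ± 0.32 in brain stem, 4.22 ± 0.47 in blood and 4.03 ± 0.25 in olfactory bulb, and blood and olfactory bulb did not differ by the test (adjusted p = 0.066, limma). Kcnj2, a main inward rectifier of muscle, was at only 3.69 ± 0.34 in heart and 4.16 ± 0.54 in blood.

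The ATP-sensitive pores were brightest in heart. Kcnj11 was at 9.32 ± 0.11 (n = 16) in heart, with 9.13 its lowest and 9.53 its highest array, then 7.23 ± 0.16 in brain stem, 6.36 ± 0.19 in olfactory bulb, 4.47 ± 0.50 in blood, 4.11 ± 0.32 in kidney and 3.73 ± 0.49 in lung. All 5 steps of that order were called. Kcnj8, the pore of vascular smooth muscle and pericytes, was at 7.80 ± 0.18 in heart, 5.78 ± 0.27 in kidney, 5.52 ± 0.53 in lung, 4.87 ± 0.19 in brain stem, 4.57 ± 0.22 in olfactory bulb and 4.39 ± 0.57 in blood. Its last 2 levels did not differ by the test (adjusted p = 0.19, limma). Its lung level had the widest spread among the solid tissues, from 4.66 to 6.11.

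Among the leak channels, Kcnk3, an acid-sensitive channel, was at 7.97 ± 0.29 in heart and 5.56 ± 0.26 in lung, though its probe sets differ in top tissue. Kcnk5, an alkali-sensitive channel of the kidney tubule, was at 6.70 ± 0.32 in kidney, 4.50 ± 0.33 in blood, 4.11 ± 0.22 in lung, 4.05 ± 0.23 in heart, 3.94 ± 0.09 in brain stem and 3.75 ± 0.14 in olfactory bulb. Lung, heart and brain stem did not differ between neighbours (adjusted p of 0.52 and 0.21, limma). Kcnk6 was at 7.30 ± 0.25 in lung and 6.34 ± 0.18 in heart. Kcnk4, a mechanically gated channel, was at 5.16 ± 0.33 in brain stem and 3.28 ± 0.33 in blood, and Kcnk15 at 6.68 ± 0.35 in olfactory bulb and 3.75 ± 0.46 in blood. Blood led for Kcnk10, at 4.87 ± 0.57 against 3.90 ± 0.15 in brain stem, and for Kcnk9, at 4.06 ± 0.49 against 3.49 ± 0.28 in heart. Both were below the array median in every tissue, at the low end of the scale that is raised in blood, and neither led without overlap.

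Kcnn4, the calcium-activated channel of red cells and lymphocytes, was at 8.32 ± 0.91 in blood and 4.63 ± 0.26 in lung. The lowest blood array, at 6.87, still lay above the highest lung array, at 5.04. Among the silent modifiers, Kcng2 was at 9.21 ± 0.33 in heart and 5.07 ± 0.51 in blood, with probe sets that differ in top tissue. Kcnv1 was at 7.85 ± 0.21 in olfactory bulb and 4.63 ± 0.51 in brain stem. Kcns3, a partner of Kcnb pores, was at 8.19 ± 0.29 in lung and 7.79 ± 0.18 in brain stem, a step called at an adjusted p of 0.012 (limma) although the arrays overlapped.

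Among the auxiliary subunits, Kcnip2 had the widest range of the 75 genes. Kcnip2, the partner of Kcnd pores in heart muscle, was at 11.4 ± 0.23 in heart, 9.88 ± 0.24 in olfactory bulb, 6.66 ± 0.32 in brain stem and 3.66 ± 0.29 in kidney, with probe sets that differ in top tissue. Kcne1, the partner of Kcnq1, was at 6.84 ± 0.36 in kidney and 4.27 ± 0.55 in blood. Kcne2 was at 7.54 ± 0.32 in lung and 5.56 ± 0.60 in blood, with probe sets that differ in top tissue. Kcne3 was at 6.46 ± 0.44 in lung and 5.58 ± 0.38 in blood, where the arrays overlapped.

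The Air level of a few genes also differed between the 4 times of sampling. In lung, 1854 named genes (13.8%) did so and 2 of the 75 potassium channel genes. Kcnj8 in the lung Air arrays was at 4.68, 5.95, 5.97 and 6.02 at 1 h, 4.66, 4.76, 5.01 and 5.10 at 3 h, 5.27, 5.52, 5.62 and 5.98 at 6 h, and 5.70, 5.87, 6.10 and 6.11 at 24 h (adjusted p = 0.0155, limma F test over the 4 Air groups). Every 3 h array lay below every 6 h and 24 h array, and 1 array at 1 h was as low as those at 3 h. Kcne4, an inhibitory subunit, was at 6.18 ± 0.23, 5.85 ± 0.32, 6.33 ± 0.19 and 6.38 ± 0.10 (SD, n = 4) in the same order of times (adjusted p = 0.0444, limma).

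In brain stem, 8.89% of named genes and 3 of the 75 differed between Air times. These were Kcnj6, Kcnh2 and Kcnc4 (adjusted p of 0.00221, 0.0264 and 0.0467, limma), and in each the 24 h group was the lowest. Kcnj6, a G protein-gated rectifier, was at 7.46 ± 0.15 at 1 h and 7.0 ± 0.27 at 24 h. In heart, 0.796% of named genes and 1 of the 75 differed. Kcns3 in the heart Air groups was at 6.24 ± 0.31, 6.17 ± 0.06, 5.58 ± 0.39 and 5.14 ± 0.32 at 1, 3, 6 and 24 h (adjusted p = 0.0182, limma). No potassium channel gene passed this test in blood (0% of named genes), kidney (0.00744%) or olfactory bulb (0.908%).

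After PH3 the signed median effect of the potassium channel genes lay between -0.10 (olfactory bulb, 6 h) and 0.18 (blood, 1 h) in the 24 comparisons. For named genes it lay between -0.04 (blood, 6 h) and 0.04 (heart, 24 h). Rises and falls cancel in such a median. The median effect size without sign was below that of named genes in blood at 1 and 24 h, kidney at 1 h and lung at 1 and 3 h. In the rest it was above. The median residual SD of the 75 genes also exceeded that of all probe sets in each tissue. In lung at 1 h 5 of 75 genes were called (6.67%), all higher, where 5.35% of named genes were called, 2.74% higher and 2.61% lower. In lung at 3 h 6 of 75 were called (8.0%), all higher, where 9.47% of named genes were called, 6.05% higher and 3.42% lower. In kidney at 1 h 1 of 75 was called (1.33%) against 2.66% of named genes, 1.57% higher and 1.09% lower. Counted over both directions, these shares are near those of all named genes. In the other 21 comparisons 0 of 75 were called by limma, and there the share of named genes called was 1.15% in heart at 1 h, 0.38% in kidney at 3 h, 0.35% in brain stem at 1 h, 0.0223% in kidney at 6 h, 0.0149% in brain stem at 3 h, 0.00744% in heart at 3 h and at 24 h, and 0% in the rest. At an unadjusted p under 0.05, between 1 and 10 of the 75 passed in each of those 21, and 6.54% of the 1575 tests together, against 6.58% of the tests on named genes.

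**Figure D2:**
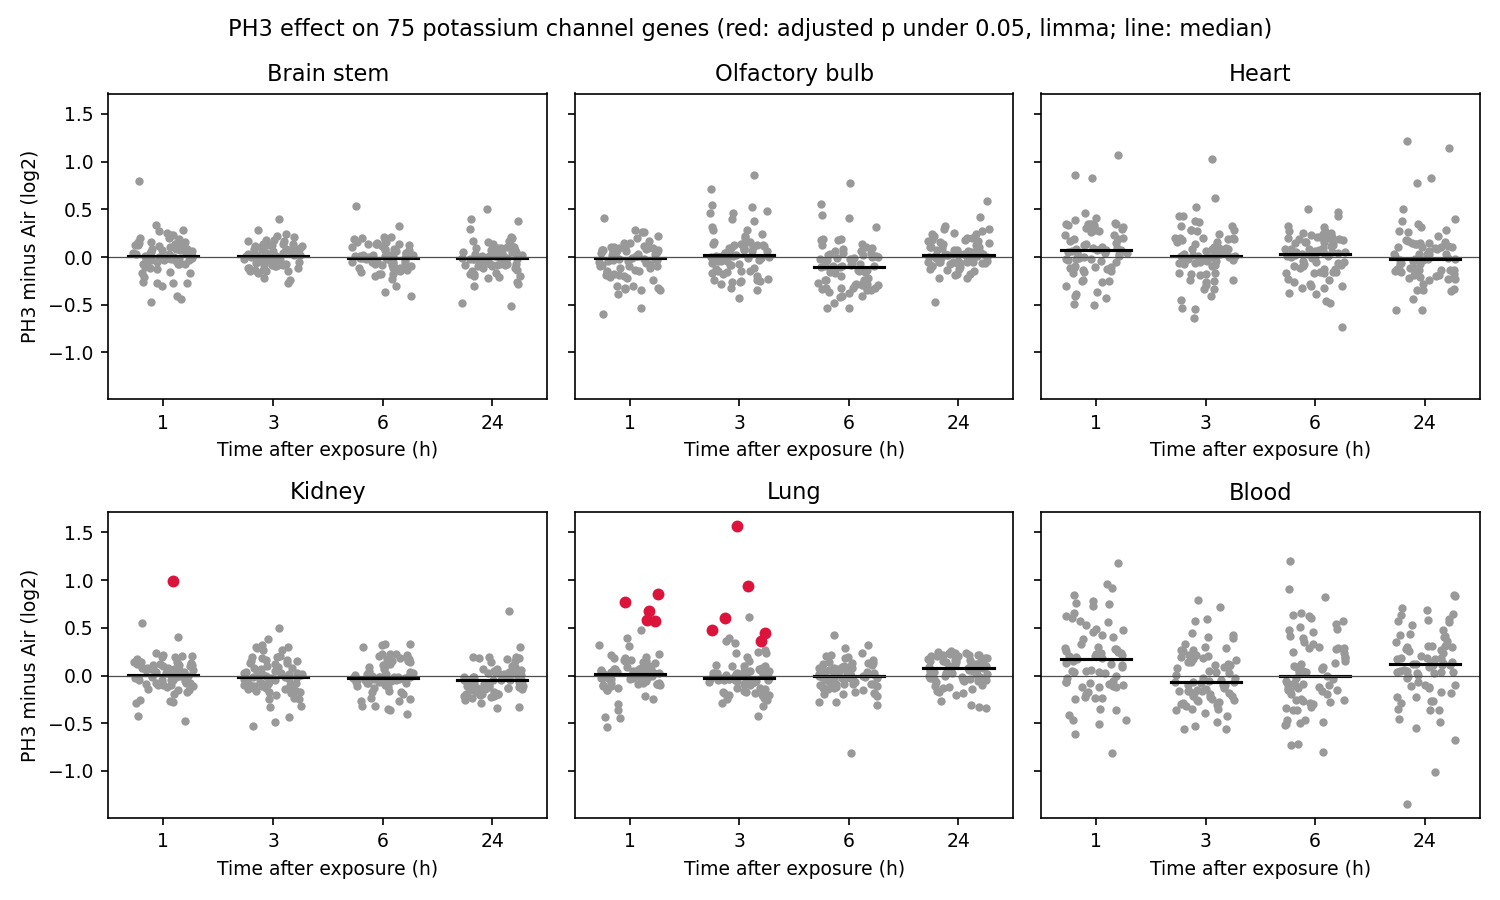
PH3 minus Air (log2) of the 75 potassium channel genes, 1 point a gene, at each time in each tissue, with the median as a line and called genes in red. The 12 called points lie above 0, in lung at 1 and 3 h and in kidney at 1 h, and the points of blood scatter most widely.

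By role, leak channels gave 5 of the 12 calls (Kcnk1 at 2 times, Kcnk5 in 2 tissues, and Kcnk6), inward rectifiers 3, auxiliary subunits 2, voltage-gated pores 1, silent modifiers 1 and calcium- or sodium-activated pores 0. Kcnk5 in lung at 1 h was at 3.76, 3.82, 3.87 and 3.98 in Air and at 4.35, 4.65, 4.78 and 5.09 after PH3. All PH3 arrays lay above all Air arrays. The effect was 0.86 ± 0.137 (SE, n = 4 and 4, adjusted p = 2.1e-04, limma), and it was -0.13, -0.07 and 0.10 at 3, 6 and 24 h. In kidney at 1 h Kcnk5 was at 5.94, 6.46, 6.66 and 6.97 in Air and at 6.46, 7.63, 7.93 and 7.97 after PH3. Here 3 of the 4 PH3 arrays lay above all Air arrays and 1 lay within them. The kidney effect was 0.99 ± 0.261 (adjusted p = 0.0373, limma), and at later times it was 0.29, 0.10 and -0.08.

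The kidney call for Kcnk5 was lost when any of 6 of the 8 arrays was left out (adjusted p up to 0.159), namely PH3 Rat343, Rat350 and Rat357 and Air Rat345, Rat352 and Rat354. Without the arrays that stand apart, which leaves Rat350 alone in the PH3 group at 1 h in lung and in kidney, assumed to vary like the other groups, the Kcnk5 effect was 0.79 in lung (adjusted p = 0.0285, limma) and 1.28 in kidney (adjusted p = 0.0817, limma). In kidney at 1 h all 5 measured red cell markers were higher after PH3, 2 of them called, with a mean level of 4.94 to 5.32 in Air and 5.44 to 5.89 in PH3 arrays, and their part in the result was not tested. In the other 4 tissues at 1 h the Kcnk5 effect was between -0.13 and 0.06. The effect of Kcnk5 at 1 h differed between the 6 tissues (adjusted p = 3.3e-04, SE-weighted F test on the limma effects), a test passed by 2 of the 75 genes and 3.85% of named genes. In lung it also differed between the 4 times (adjusted p = 0.00657, limma), as it did for 5 of the 75 genes and 5.28% of named genes. In the other 5 tissues 0 of the 75 genes differed between times by limma, against 0.595% of named genes in kidney, 0.179% in heart, 0.0967% in brain stem and 0% in olfactory bulb and blood.

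Kcnk1, a weakly conducting leak channel, was at 6.37, 6.43, 6.57 and 6.61 in lung Air and at 7.02, 7.11, 7.19 and 7.38 after PH3 at 1 h, without overlap. The effect was 0.68 ± 0.142 (adjusted p = 0.00368, limma), and with Rat350 as the only PH3 array it was 0.89 (adjusted p = 0.0202, limma). At 3 h it was at 5.86, 6.25, 6.50 and 6.56 in Air and 6.58, 6.68, 6.71 and 6.99 after PH3, so the lowest PH3 array was just above the highest Air array. That effect was 0.45 ± 0.142 (adjusted p = 0.0414, limma) and was not called with 5 of the 8 arrays left out in turn (Air Rat355 and Rat365 and PH3 Rat361, Rat368 and Rat399). Its effect at 1 h differed between tissues (adjusted p = 0.0180, SE-weighted F test on the limma effects) and its lung effect between times (adjusted p = 0.0133, limma), with -0.19 and -0.14 at 6 and 24 h. Kcnk6 in lung at 3 h was at 6.76, 7.12, 7.33 and 7.36 in Air and 7.56, 7.63, 7.64 and 7.65 after PH3. The PH3 arrays were close together and above all Air arrays, for an effect of 0.48 ± 0.132 (adjusted p = 0.0205, limma).

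**Figure D3:**
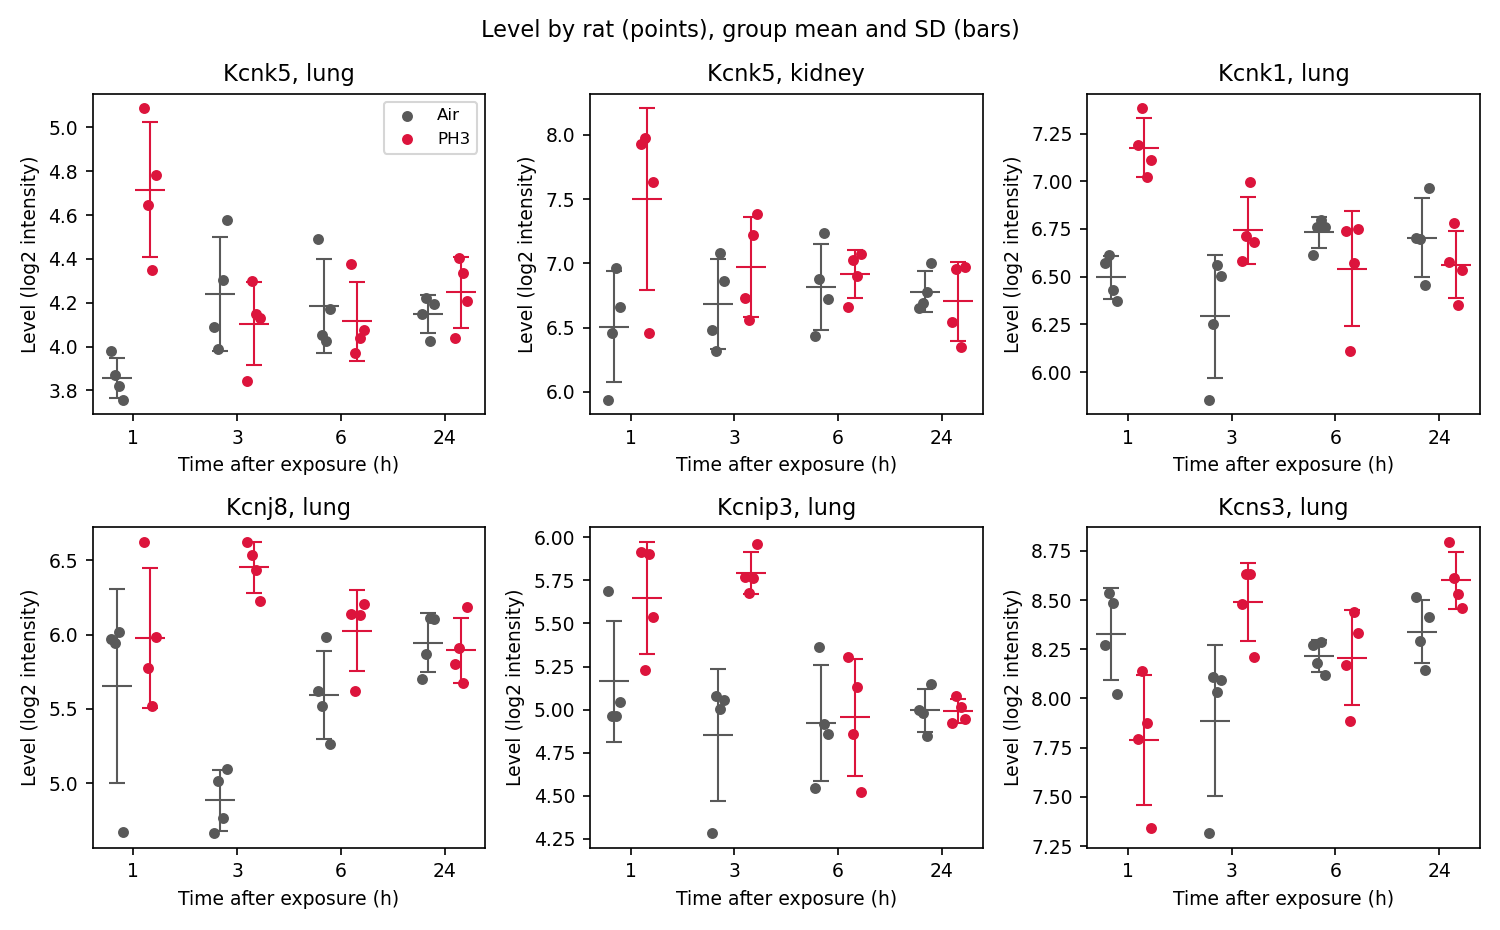
Log2 level of 4 genes called in lung at 3 h or 1 h and of Kcnk5 in lung and kidney, by time after exposure, in Air (grey) and PH3 (red) rats, with points for rats and bars for mean and SD of 4 rats. Kcnk5 is raised at 1 h in both tissues. In lung the 3 h Air group has the lowest mean of the 4 Air groups for Kcnk1, Kcnj8, Kcnip3 and Kcns3.

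Among the inward rectifiers, Kcnj8 in lung at 3 h was at 4.66, 4.76, 5.01 and 5.10 in Air and 6.22, 6.44, 6.53 and 6.62 after PH3. The groups were more than 1 log2 unit apart at their nearest arrays. The effect was 1.57 ± 0.233 (adjusted p = 4.3e-04, limma) at 3 h and 0.32, 0.43 and -0.05 at 1, 6 and 24 h. It differed between times in lung (adjusted p = 0.0154, limma) and between tissues at 3 h (adjusted p = 8.7e-04, SE-weighted F test on the limma effects), which 1 of the 75 genes and 0.327% of named genes did. At 6 and 24 h 0 of the 75 differed between tissues, against 0.00744% and 0% of named genes. In the other tissues at 3 h the Kcnj8 effect was between -0.27 and 0.38. Set against Air at the remaining 3 times, the 3 h effect of Kcnj8 in lung was 0.72 (adjusted p = 0.0517, limma).

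Beside the lung result at 3 h several other measures moved. The 3′ minus 5′ difference of the beta-actin and Gapdh controls, a measure of RNA quality, was 0.343 to 0.521 in the 4 Air arrays and 0.0952 to 0.247 in the 4 PH3 arrays. With that difference as a covariate 0 of the 6 genes kept their call. It left 4 of the 31042 probe sets called in this comparison, against 3071 without it. The effects with the covariate were 1.21 for Kcnj8 (adjusted p = 0.211, limma), 0.80 for Kcnip3 (0.94 without it), 0.50 for Kcnk6 (0.48), 0.43 for Kcns3 (0.60), 0.32 for Kcnh1 (0.36) and 0.26 for Kcnk1 (0.45). A fit without all lung arrays that stand apart left out Air Rat355 and Rat365 at 3 h and arrays of other times. In that fit Kcnj8 alone of the 6 was called, at 1.52 (adjusted p = 0.0216, limma). In the lung Air arrays the 3 h group had the lowest mean of the 4 times for all 6 genes. Set against Air at the remaining 3 times, 1 of the 6, Kcnip3, kept its call, at an effect of 0.76. The other effects were then 0.72 for Kcnj8, 0.26 for Kcnk6, 0.19 for Kcns3, 0.12 for Kcnh1 and 0.099 for Kcnk1. That fit called 431 of the 31042 probe sets. All 5 measured neutrophil markers were higher after PH3, 3 of them called, and their mean level was 5.03 to 6.50 in Air and 6.31 to 7.46 in PH3 arrays. All 7 measured lymphocyte markers were higher too, 1 called, at 6.11 to 6.67 in Air and 6.79 to 7.02 after PH3. Of 7 smooth muscle markers 6 were higher and 1 was called (7.99 to 8.44 in Air, 8.10 to 8.58 after PH3), and of 6 pericyte markers 3 were higher and 0 were called (7.52 to 7.75 in Air, 7.46 to 7.64 after PH3). Of 7 cardiomyocyte markers 5 were higher (6.02 to 8.21 in Air, 6.36 to 7.44 after PH3) and all 4 atrial myocyte markers (6.96 to 10.5 in Air, 7.65 to 9.13 after PH3), with 0 called. Of 6 measured endothelium markers 3 were higher and 1 was called, as lower. In whole tissue more cells of a type and more RNA per cell cannot be told apart, and the part of these measures in the result was not tested.

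Kcnj15 and Kcnj4 were called in lung at 1 h. Kcnj15, an inward rectifier of epithelia, was at 4.71, 4.87, 5.05 and 5.34 in Air and 5.48, 5.50, 5.66 and 6.41 after PH3, without overlap and with 1 PH3 array well above the rest. The effect was 0.77 ± 0.179 (adjusted p = 0.00996, limma) and differed between times (adjusted p = 0.0311, limma), with -0.04, -0.31 and -0.17 later. Kcnj4 was at 4.84, 5.11, 5.2 and 5.46 in Air and 5.45, 5.57, 5.72 and 6.17 after PH3, and the groups touched. Its effect was 0.58 ± 0.164 (adjusted p = 0.0400, limma). In lung at 1 h, Kcnj15, Kcnj4 and Kcnmb4 lost their calls when PH3 Rat343 or Air Rat352 was left out, so that 2 of the 5 remained. Without Rat343 Kcne4 was called as well, as lower after PH3. Kcnj4 was not called without PH3 Rat350, Air Rat353 or Air Rat354 either (5 of the 8 arrays), nor Kcnmb4 without Air Rat354 or PH3 Rat357 (4 of the 8). With Rat350 as the only PH3 array all 3 lost their calls, at effects of 0.66 for Kcnj15, 0.57 for Kcnj4 and 0.52 for Kcnmb4.

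Marker levels also moved in lung at 1 h. All 4 atrial myocyte markers were higher after PH3, with a mean level of 7.41 to 9.28 in Air and 7.20 to 11.6 in PH3 arrays, as were all 7 cardiomyocyte markers (6.43 to 7.54 in Air, 6.08 to 8.79 after PH3). All 7 neuron markers were higher (3.90 to 4.24 in Air, 4.03 to 5.07 after PH3) and all 5 measured red cell markers (5.31 to 6.19 in Air, 5.95 to 6.35 after PH3). The groups overlapped for each of these lists, and 0 of their genes were called by limma. Other lists did not move wholly upward. Of 6 measured endothelium markers 2 were higher, and by limma 1 was called higher and 1 lower. Of 7 measured lymphocyte markers 2 were higher and of 5 measured oligodendrocyte markers 1, with 0 called. The part of all these markers in the calls at 1 h was not tested.

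The partners in ATP-sensitive channels gave no call apart from Kcnj8. Over the 24 comparisons the effect of Kcnj11 ran from -0.39 to 0.56, of Abcc8 from -0.27 to 0.41 and of Abcc9 from -0.60 to 0.62, with 0 calls by limma. In heart, where Kcnj11 was brightest, its effects were -0.14, -0.25, 0.03 and 0.13 at 1, 3, 6 and 24 h (SE 0.0954). Kcnj8 in heart gave -0.36, 0.08, 0.15 and 0.28 (SE 0.174). Kcnj2 ran from -0.18 to 0.83 and Kcnj10 from -0.41 to 0.32, also with 0 calls.

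Among the auxiliary subunits, Kcnip3 and Kcnmb4 were called. Kcnip3, a calcium-binding partner of Kcnd pores that also acts as a transcriptional repressor, was at 4.28, 5.0, 5.05 and 5.08 in lung Air at 3 h and 5.68, 5.76, 5.77 and 5.96 after PH3. One Air array, Rat355, lay well below the others, and all PH3 arrays lay above all Air arrays. The effect was 0.94 ± 0.190 (adjusted p = 0.00322, limma), 0.75 without that array, and 0.76 with Air taken from the remaining 3 times. Kcnmb4, the neuronal beta subunit of the large calcium-activated channel, was at 5.81, 5.86, 5.97 and 6.08 in lung Air at 1 h and 6.21, 6.46, 6.64 and 6.70 after PH3. Its effect was 0.57 ± 0.143 (adjusted p = 0.0190, limma), with no overlap. In heart at 1 h Kcnmb4 was at 5.74, 6.08, 6.13 and 6.19 in Air and 6.69, 6.77, 6.79 and 7.34 after PH3, also without overlap, for 0.86 ± 0.228 (adjusted p = 0.0656, limma).

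The last 2 lung calls at 3 h were Kcns3 and Kcnh1. Kcns3 was at 7.32, 8.03, 8.09 and 8.11 in Air and 8.21, 8.48, 8.63 and 8.63 after PH3, for 0.60 ± 0.163 (adjusted p = 0.0192, limma). Air Rat355 was again the lowest array, and without it the adjusted p was over 0.05. The lung effect of Kcns3 differed between times (adjusted p = 0.0173, limma), with -0.54 at 1 h, -0.01 at 6 h and 0.26 at 24 h. Kcnh1, a voltage-gated pore of neurons, was at 3.56 to 3.64 in Air and at 3.70, 4.0, 4.02 and 4.18 after PH3, for 0.36 ± 0.117 (adjusted p = 0.0464, limma). That call was lost when any of 7 of the 8 arrays was left out, all but PH3 Rat399, and also with array medians subtracted (adjusted p = 0.0541, limma). Of the 6 calls at 3 h, Kcnip3 and Kcnj8 alone kept theirs when Air Rat355, PH3 Rat368 or PH3 Rat361 was left out. Without Rat361 Kcnh2 was called as well, as lower after PH3.

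**Figure D4:**
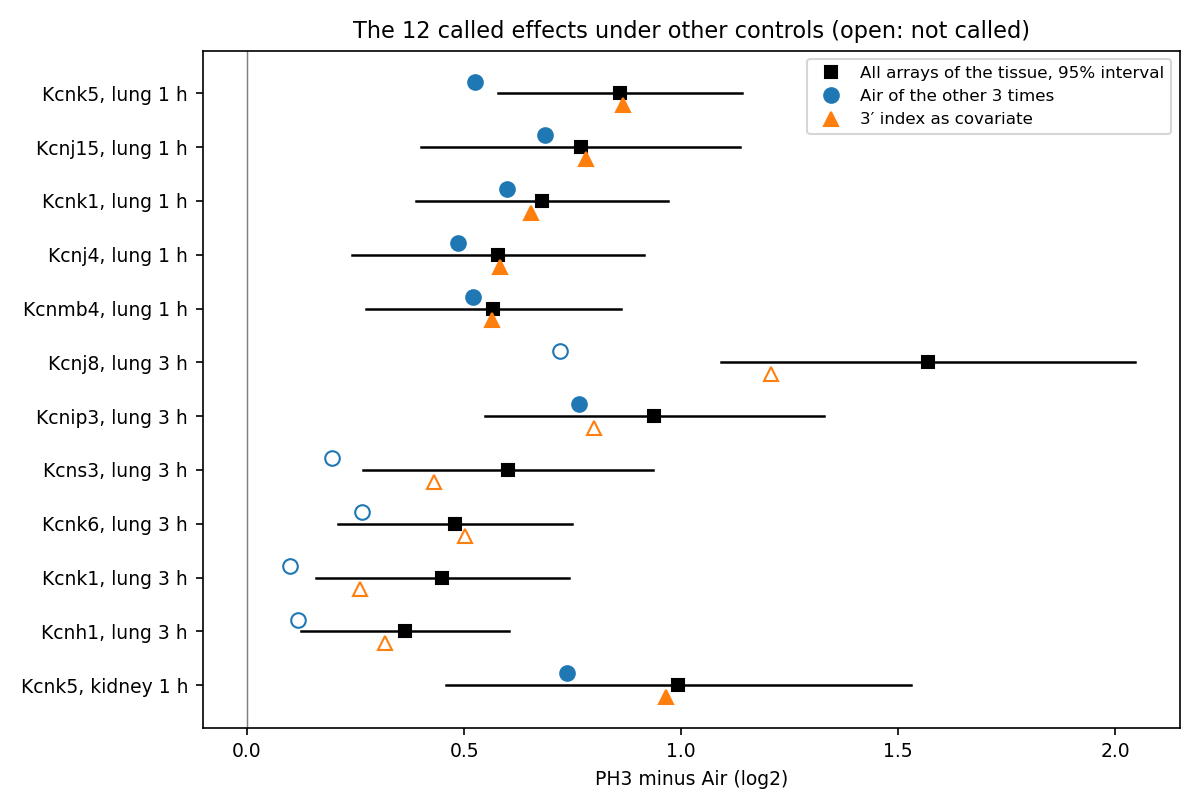
PH3 minus Air (log2) of the 12 called results, with the 95% interval (black), with Air taken from the remaining 3 times (blue) and with the 3′ minus 5′ control difference as a covariate (orange), where open symbols are not called. All 5 lung results at 1 h stay called in both, and the 6 lung results at 3 h do not with the covariate.

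In the remaining comparisons the gene with the smallest p of the 75 is given, none of which passed the test. In heart at 24 h this was Kcns3, at 4.84, 4.91, 5.31 and 5.52 in Air and 6.00, 6.23, 6.40 and 6.50 after PH3, for 1.14 ± 0.211 (adjusted p = 0.105, limma). The groups did not overlap, but the Air level of Kcns3 in heart was lowest at that time, and with Air taken from the remaining 3 times the effect was 0.29. In heart at 3 h it was Kcnk1 (1.03 ± 0.309) and at 6 h Kcnh1 (-0.49 ± 0.129). In brain stem at 1 h it was Kcna5, a voltage-gated pore of heart and vessels, at 4.03, 4.43, 4.55 and 4.55 in Air and 4.60, 5.05, 5.23 and 5.86 after PH3, for 0.80 ± 0.209 (adjusted p = 0.145, limma). At 3, 6 and 24 h in brain stem it was Kcnj11 (0.17), Kcnk9 (-0.30) and Kcnk2 (-0.27).

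In lung at 6 h the gene was Kcnd3, a rapidly inactivating pore, at 6.94, 7.02, 7.18 and 7.21 in Air and 5.96, 6.01, 6.37 and 6.74 after PH3. All PH3 arrays were below all Air arrays, for -0.82 ± 0.266 (adjusted p = 0.983, limma), at a time when 0% of named genes were called and 3.21% did not overlap. In lung at 24 h it was Kcnk9 (0.23). In kidney it was Kcne3 at 3 h, at 4.21 to 4.72 in Air and 3.89 to 4.19 after PH3 (-0.53 ± 0.157, adjusted p = 0.180, limma), Kcnb2 at 6 h (0.30) and Kcnk9 at 24 h (-0.33). The olfactory bulb gave Kcnj11 (-0.39), Kcng3 (0.38), Kcnh3 (-0.33) and Kcnn1 (0.32) at 1, 3, 6 and 24 h. Blood gave Kcnc4 (1.18 ± 0.397), Kcnh4 (0.71), Kcnj4 (1.21 ± 0.346) and Kcnc4 again (-1.01 ± 0.429), all with adjusted p of at least 0.336 (limma).

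**Figure D5:**
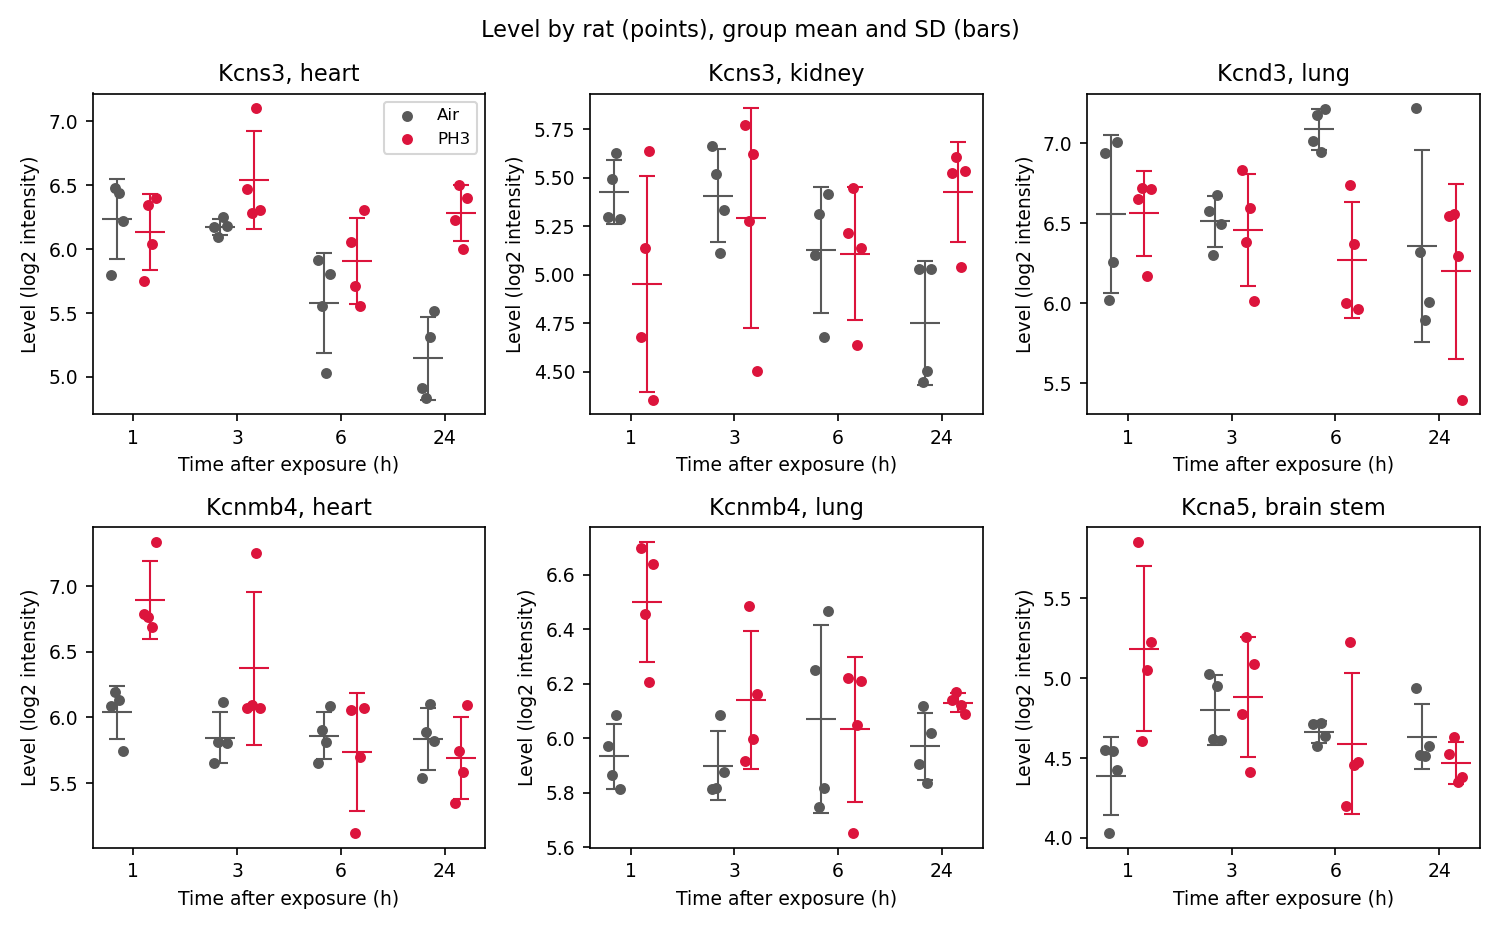
Log2 level of Kcns3 in heart and kidney, Kcnmb4 in heart and lung, Kcnd3 in lung and Kcna5 in brain stem, by time, in Air (grey) and PH3 (red) rats, with points for rats and bars for mean and SD of 4 rats. The heart Air groups of Kcns3 decline from 6.24 at 1 h to 5.14 at 24 h, and for Kcnd3 in lung the PH3 points at 6 h all lie below the Air points.

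Genes that work with these channels were taken from 3 lists. Over the 24 comparisons together, 0.481% of the tests on named genes were called higher and 0.329% lower. Of 16 channel partners 12 were measured, and in 288 tests 0 were called higher and 3 lower (1.04%). These were Amigo1, a partner of Kcnb pores, at -0.91 ± 0.207 in heart and -0.50 ± 0.132 in kidney at 1 h, and Akap9, a kinase anchor of the Kcnq1 channel, at -0.48 ± 0.112 in lung at 3 h. Of 22 potassium pumps and cotransporters 18 were measured, with 3 higher (0.694%) and 0 lower in 432 tests, all in lung at 1 or 3 h. Atp1b1, a subunit of the sodium-potassium pump, was higher by 0.80 ± 0.139 in lung at 1 h, and Fxyd5 and Atp1b3 by 0.57 ± 0.102 and 0.28 ± 0.0841 in lung at 3 h.

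Of 18 channel regulators 16 were measured, with 6 higher (1.56%) and 2 lower (0.521%) in 384 tests. The calls of the 3 lists fell in comparisons where between 0.35% and 9.47% of named genes were called. Sgk1, a kinase induced by steroid hormones that raises channel numbers at the membrane, was higher at 1 h by 1.93 ± 0.406 in brain stem, 1.63 ± 0.335 in heart and 1.15 ± 0.256 in kidney. Tsc22d3, a glucocorticoid target, was higher at 1 h by 0.84 ± 0.147 in kidney and 0.81 ± 0.184 in lung. Nedd4l, a ubiquitin ligase of ion channels, was higher by 0.67 ± 0.0817 in lung at 1 h. Nr3c2, the mineralocorticoid receptor, and Nedd4 were lower by fitted effects of -0.41 ± 0.100 and -0.35 ± 0.111 in lung at 3 h.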

How the data were processed

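The deposited files hold log2 intensities for each probe set. Per the submitters' processing notes the authors used Partek and RMA, which subtracts background, quantile normalizes and summarises probes. Not given in the sources used here: versions, and which arrays were normalized as 1 set. The values held 31139 probe sets, from 2.04 to 14.18. The 97 control probe sets were left out and 31042 tested. Of these 19063 name 1 gene, 572 several and 11407 none here. Arrays give no counts, so their number limits the precision.

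For each tissue, limma 3.58.1 in R 4.3.3 fitted all its arrays with a coefficient per group. PH3 was set against Air of the same time, two-sided, with Benjamini-Hochberg adjustment over all probe sets. F tests compared effects and Air levels between times. Effects were compared between tissues with an F test that weights each tissue's effect by its SE (the SE-weighted F test), without a block for the rat. Air levels were compared between tissues in a fit of the 96 Air arrays, and a gene was highest in a tissue when called higher than in each of the other 5. The genes named are those called, those with the smallest p where 0 or 1 were called, the 4 per tissue with the widest gap in Air, those called between Air times, between times or between tissues, and the ATP-sensitive, Kcnj2 and Kcnj10 channels. The genes and lists were chosen with earlier results of these data known. On simulated lung arrays the 1 h comparison recovered 62.7%, 89.6% and 97.0% of changes of 0.5, 1 and 2 log2 units. Each array of a tissue is a different rat. Rat numbers pair tissues of 1 animal, not PH3 with Air, and the correlation between tissues of a rat was 0.0168. No array correlated best with another tissue. Figures were drawn with matplotlib 3.10.9 in Python 3.11.15.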

Additional observations from a re-analysis of the deposited data

Results flagged for a closer look

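Dixon's ratio is the gap to the nearest array over the range of the group. By it an array stood apart from the others in 5 of 66 groups (7.6%), where chance flags about 1 in 20. The critical value was 0.829 for 4 arrays and 0.71 for the 5 Air arrays of olfactory bulb at 1 h. The 66 include the blood Air group of Kcnc4 at 24 h, whose 3 arrays were not tested. In lung at 3 h Air Rat355 was lowest for Kcnip3 (4.28 against 5.0 for the next, ratio 0.905) and for Kcns3 (7.32 against 8.03, ratio 0.908). In heart, Air Rat365 was highest for Kcnk1 at 3 h (3.85 against 2.99, ratio 0.928) and PH3 Rat357 for Kcnmb4 at 1 h (7.34 against 6.79, ratio 0.847). In kidney at 24 h PH3 Rat333 was highest for Kcnk9 (3.17 against 3.00, ratio 0.911).

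Effects differed between tissues for Kcnk5 (adjusted p = 3.3e-04, SE-weighted F test on the limma effects) and Kcnk1 (adjusted p = 0.0180) at 1 h and for Kcnj8 at 3 h (adjusted p = 8.7e-04). Lung effects differed between times by limma's F test for Kcnk5 (adjusted p = 0.00657), Kcnk1 (adjusted p = 0.0133), Kcnj8 (adjusted p = 0.0154), Kcns3 (adjusted p = 0.0173) and Kcnj15 (adjusted p = 0.0311). A second, dimmer probe set of Kcnj4, not used above, was higher by 0.78 in lung at 3 h (adjusted p = 0.0108, limma), where the brightest gave 0.36.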

How the results depend on the processing

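The 12 calls had 128 values under alternatives other than leaving out 1 array, of which 85 stayed called, 43 were not, and 0 changed sign. Over all arrays left out in turn, the counts ran from 2 to 5 (5 in the full fit) in lung at 1 h, 2 to 7 (6) in lung at 3 h, 0 to 2 (1) in kidney at 1 h, and 0 to 1 (0) in brain stem and heart at 1 h. Kcnk5 and Kcnk1 at 1 h and Kcnj8 and Kcnip3 at 3 h in lung kept their calls without any 1 of the 8 arrays. With the groups of a time alone the counts were 2 in lung at 1 and 3 h and 0 in kidney at 1 h. The probe sets called there were 519, 801 and 121 of all 31042, and such numbers follow in brackets. With array medians subtracted the counts at 1 h were 0 in kidney (743) and 1, Kcnmb4, in heart (324). Between Air times 1 gene then differed in lung (3588). The brighter 50% of probe sets, tested and adjusted alone, held 13 potassium channel genes in lung and 20 in heart at 1 h. The counts there were 3 in lung (1439) and 1 in heart (321), with brackets over those probe sets only. Of the 3 in lung, Kcnk1 and Kcnmb4 were higher and Kcns3 lower. Kcnk5, Kcnj15 and Kcnj4, called in the full fit, were not among the 13 and so were not tested. With the 3′ covariate the counts were 0 in lung at 3 h (4) and 2 in kidney at 1 h (751). With Air from the remaining 3 times the counts were 1 in lung at 3 h (431) and 4 in kidney at 1 h (1865). Heart gave 1 at 1 h (1435) and 1 at 3 h (185). Brain stem at 24 h gave 6, of which 5 were lower (2122). The olfactory bulb at 3 h gave 4, of which 3 were lower (1214). Kcnh3 in olfactory bulb at 6 h turned from -0.33 to 0.020. Without the arrays that correlate least with their tissue (33 of 192) the count in lung at 3 h was 1 (293). At 1 h the PH3 groups of lung and kidney then keep 1 array each, assumed to vary like the other groups. Their effects are given above.

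With the rat as a replicate block in 1 fit of all arrays, which pools 1 spread over tissues, the counts were 15, 2, 11 and 9 in blood at 1, 3, 6 and 24 h, 3, 1 and 1 in heart at 1, 3 and 24 h, 1 in lung at 1 h and 2 at 3 h, and 4 genes at 1 h and 1 at 6 h differed between tissues. The replicate block with 1 array weight per tissue was an alternative chosen after seeing the data. It gave 1 in brain stem at 1 h (175) and 1 in heart at 1 h (712) and at 24 h (50). In olfactory bulb it gave 2 at 3 h (227) and 1, which was lower, at 6 h (438). In lung it gave 4 at 1 h and at 3 h. For Air levels, arrays without overlap put 6 genes highest in blood, 6 in brain stem, 1 in lung and 11 in olfactory bulb. Without blood, also chosen after seeing the data, 15 were highest in heart, as were 2412 of the 13438 named genes. The cause of these moves was not tested, other than that the alternatives use fewer arrays, fewer probe sets or a stricter criterion where so named. With all arrays the p-values rest on 3 to 5 rats a group.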
